A study of Mus musculus with 6 samples.

Results

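The genes described here encode the collagens, the laminins and a set of matrix glycoproteins, measured by mRNA-seq in mouse primary oligodendrocyte precursor cells (mOPCs) with and without Quaking (Qk) knockdown. Members were chosen by symbol: every collagen and laminin chain gene, the nidogens, the thrombospondins Thbs1 to Thbs4, and Fn1, Tnc, Sparc, Hspg2, Spp1 and Vtn. The rule took 67 of the 23038 genes in the files, with 43 collagen and 11 laminin genes among them. It also took Col4a3bp, which encodes a ceramide transfer protein and no collagen, and which is kept in the counts and named as such. Of the 67 genes, 40 were expressed highly enough to be tested.

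mOPCs divide and differentiate into oligodendrocytes (OLs), the cells that wrap central axons in myelin. In the siNC group (3 libraries) cultured mOPCs received control siRNA, and in the siQk group (3 libraries) they received siRNA against Qk, an RNA-binding protein of the STAR family. The labels call the libraries of each group biological replicates and give no other genotype or agent. The siQk libraries stem from different siRNAs against the same gene and the sources do not state which library received which, so that siRNA and replicate cannot be told apart. The cells were purified from mouse embryos by immunopanning, and the labels do not name the strain or sex. The sources used here give no measure of how many cells of other types remained in the cultures.

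Collagens are triple helices of 3 chains. Fibrillar collagens form fibers, FACIT collagens sit on the surface of fibers, and collagen IV forms the sheet-like network of basement membranes. Laminins are heterotrimers of an alpha, a beta and a gamma chain that form the other network of the basement membrane, and nidogens and perlecan link the networks. In the brain, most basement membrane lies around vessels and below the meninges, while cells of the oligodendrocyte lineage contact laminins and other matrix proteins through integrins and dystroglycan.

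Levels are given as RPKM, which is the number of tags of a gene scaled by its exon length in kilobases and by the library's total of tags, so that levels of different genes can be set side by side. Differences are log2 fold changes of siQk over siNC from edgeR's quasi-likelihood test on the tag counts, with TMM scaling. TMM factors were 0.899 to 0.987 in siNC and 1.04 to 1.07 in siQk, so that a log2 fold change lies slightly below the one that the RPKM means give. The threshold for a change was P below 0.01 together with FDR below 0.1, adjusted by Benjamini-Hochberg over all 12505 tested genes. Qk itself measured 209, 206 and 163 RPKM in the siNC libraries and 51.3, 76.6 and 36.2 RPKM in the siQk libraries (log2 fold change -1.98, SE 0.28, FDR 0.0031). The exact two-sided permutation test of its RPKM gave p = 0.1, the smallest that 3 libraries against 3 allow.

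Library totals ran from 58166490 to 141045937 tags. The shallowest, siNC 1, stood apart since ribosomal RNA from Rn45s took 3.115% of its tags and 0.169% to 0.389% of those in the others. All 10 OPC markers were expressed, with summed levels of 1115 to 1194 RPKM in siNC and 1343 to 1504 RPKM in siQk. Of these markers 4 rose and 5 did not pass, while Lhfpl3 fell from 203 ± 14.9 to 108 ± 9.38 RPKM (log2 fold change -1.07). Markers of mature OLs summed to 4816, 4507 and 2533 RPKM in siNC and to 1303, 1046 and 1722 RPKM in siQk, and 6 of their 9 tested genes fell. Among markers of cells that produce much matrix, the fibroblast and mural list summed to 1.16 to 1.82 RPKM in siNC and 0.912 to 1.12 RPKM in siQk, with Lum, Pdgfrb, Slc6a13 and Vtn, which is also a member, listed at 0 in some libraries. Its 1 tested gene of 10, Postn, fell. The endothelial list, of which Cldn5 was listed at 0 throughout, summed to 2.37 to 5.02 RPKM in siNC and 3.52 to 4.70 RPKM in siQk and came mostly from Kdr. Astrocyte markers summed to 183 to 263 and 136 to 157 RPKM, with 4 of 7 tested genes lower. Of these Gfap fell from 69.1 ± 27.9 to 9.85 ± 1.26 RPKM (log2 fold change -2.95), Slc1a3 and Slc1a2 measured 25.5 and 17.5 RPKM on average in siNC, Aldoc measured 94.9 RPKM there and did not pass, and Gja1 was at 0.013 RPKM or less. Microglia markers summed to 2.73 to 5.82 and 1.36 to 2.06 RPKM, with 1 of 2 tested genes lower and C1qa at 0. Neuron markers summed to 152 to 239 and 177 to 219 RPKM, with 3 of 7 tested genes higher. Their sum came mostly from Tubb3 (means of 123 and 91.9 RPKM in siNC and siQk) and Mtap2 (58.8 and 96.8 RPKM). Stmn2 did not exceed 0.0439 RPKM and Rbfox3 did not exceed 0.672 RPKM. The part of these shifts in the results below was not tested, and in bulk RNA fewer cells of a type and less RNA per cell cannot be told apart.

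Qk proteins bind RNA at the sequence ACUAAC or ACUAAU, and the copies of this hexamer in the annotated 3' untranslated regions (3'UTRs) of the changed genes are shown first for that reason. Among the 15 members that changed, 5 held it, with 11 copies in all. They are printed 5' to 3' in the sense of the transcript with 9 bases on either side, with the hexamer ACTAAC or ACTAAT in capitals, from GENCODE M21 on GRCm38. Copies were searched on the transcript strand only.
Sparc, chr11:55394660-55394683, minus strand: aaaccttctACTAATcaagagaaa
Col4a5, chrX:141688532-141688555, plus strand: catggtgctACTAATcctaatgta
Col4a3, chr1:82720864-82720887, plus strand: aaaacaaggACTAATctccttggc
Col4a3, chr1:82721980-82722003, plus strand: ttacaatgtACTAATatttctgta
Col12a1, chr9:79600988-79601011, minus strand: agactccatACTAACttgaatgac
Col12a1, chr9:79600857-79600880, minus strand: taataagctACTAACcaacagagt
Col12a1, chr9:79600781-79600804, minus strand: aaataataaACTAATtgtcgcttg
Col12a1, chr9:79599235-79599258, minus strand: ttttgacacACTAACatttatgcc
Col4a1, chr8:11199622-11199645, minus strand: attcgcgtaACTAACacaccccgc
Col4a1, chr8:11198836-11198859, minus strand: gtttgcaacACTAACcacagactg
Col4a1, chr8:11198442-11198465, minus strand: acacgtaccACTAATaaacctgta

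The first 8 of these copies lie in genes that were lower in siQk and the last 3 in a gene that was higher. Of all tested genes with an annotated 3'UTR, 37.0% of 11850 held at least 1 copy, at 0.329 copies per kilobase. Of the 40 tested members 10 did (25%), at 0.317 copies per kilobase, with a median 3'UTR of 921 bases against 1475 bases over all genes. By direction, 4 of the 12 lower, 1 of the 3 higher and 5 of the 25 uncalled members held a copy. Per kilobase there were 0.644 copies in the lower members (8 copies), 1.46 in the higher members (3 copies, all in Col4a1) and 0.139 in the uncalled members (5 copies). These densities rest on few genes and were not tested, and such a match describes the sequence and does not show binding.

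Matrix transcripts of mOPCs were spread over a wide range and rested on few genes. Of the 67 members, 10 had a mean of at least 10 RPKM over the 6 libraries and 14 a mean between 1 and 10 RPKM. The 27 untested members were at or below 0.209 RPKM in every library, and 23 of them had a mean under 0.1 RPKM. Summed over all members, the siNC libraries held 1058, 1038 and 1155 RPKM and the siQk libraries 977, 928 and 1010 RPKM, so that the groups did not overlap (1084 ± 62.7 and 971 ± 41.4, SD, n = 3). As a share of all tags, which long genes weigh more, the members took 0.589%, 0.545% and 0.653% in siNC and 0.606%, 0.571% and 0.619% in siQk, and by this measure the groups overlapped fully. Col11a1 and Col16a1 made up a large part of each sum. Without them the sums were 485, 554 and 479 RPKM in siNC and 275, 275 and 302 RPKM in siQk. Most of this drop lay in Sparc (means of 197 and 77.8 RPKM in siNC and siQk), Col20a1 (91.5 and 26.1 RPKM) and Col4a5 (40.3 and 7.10 RPKM). It therefore does not describe the remaining members as a set.

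Of the 40 tested members, 15 changed between siQk and siNC, 37.5% of those tested, beside 31.0% of all 12505 genes. Lower in siQk were 12 of the 40, beside 17.2% of all genes, and higher were 3 of the 40, beside 13.8%. The median log2 fold change of the tested members was -0.45, and that of all genes was 0.01. RPKM ranges did not overlap for all 15 changed members and for 5 of the 25 that were not called, while they did not overlap for 58.3% of all genes. The changed share of members was thus close to that of all genes. Counts of members were similar with RLE scaling (13 lower, 3 higher) and with upper quartile scaling (11 lower, 3 higher). With library size only, 9 members were lower and 5 higher. With limma on RPKM, which also changes the test, 7 were lower and 6 higher. Without siQk 1, 6 were lower and 3 higher, and without siQk 2, 7 were lower and 2 higher. The lower and higher shares of all genes were not counted under these settings, so the counts are not set against them. Another 9 members had P under 0.05 without passing. Across 16 alternative analyses, 7 of the changed members were called every time: Col4a5, Col4a3, Col13a1, Nid2, Col20a1, Sparc and Lama1. The other 8 lost the call under at least 1, and the libraries whose omission ended it are named with each. Other settings ended calls too: all 8 but Col6a1 under a cutoff of FDR below 0.05 and a log2 fold change of at least 1 in size, which Col12a1, Col4a1, Col9a3, Hspg2, Lama4, Lamb1 and Lamb2 do not reach. Col12a1, Col9a3 and Lamb1 were also lost with library size only and with limma on RPKM, Lamb1 with upper quartile scaling, and Hspg2 and Lamb2 with limma.

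**Figure D1:**
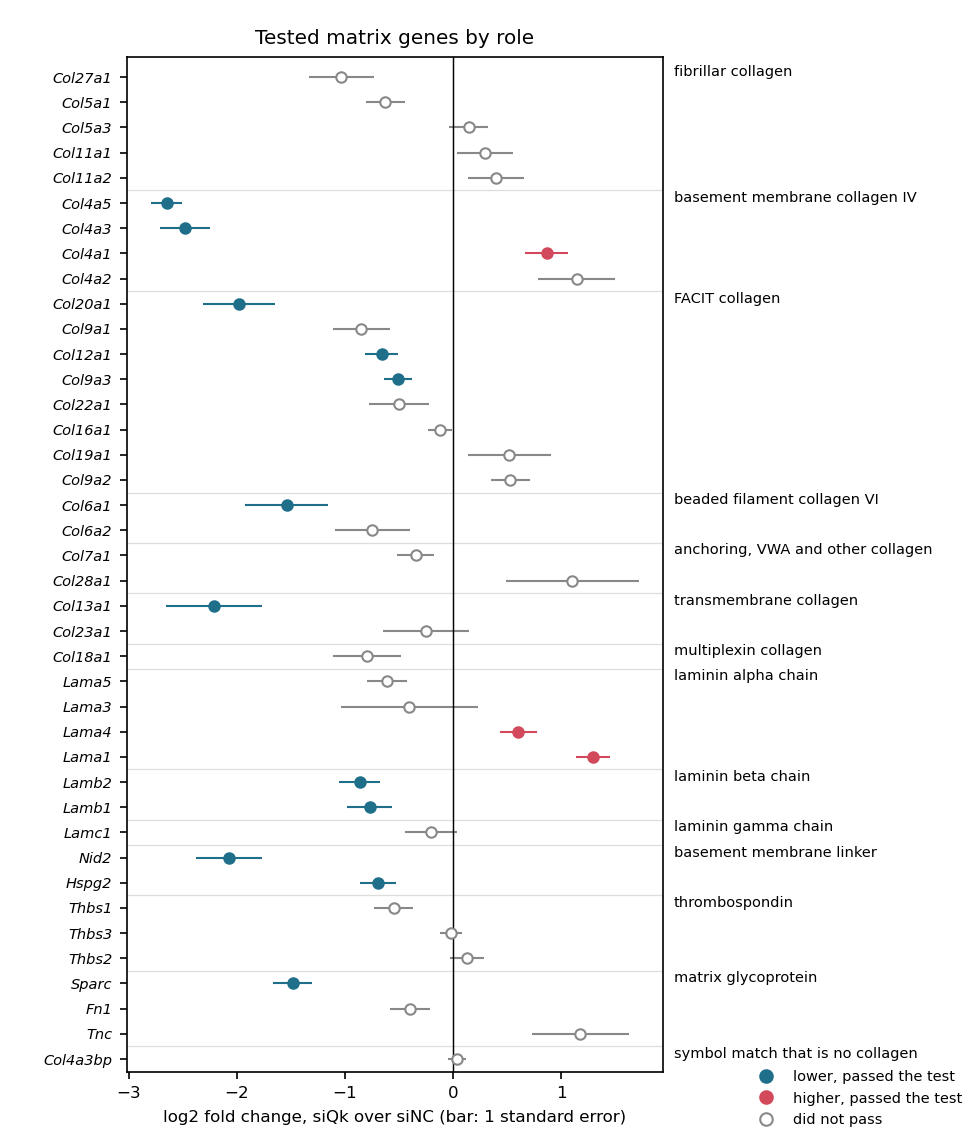
Log2 fold changes (siQk over siNC) of the 40 tested members, grouped by role, with bars of 1 standard error (n = 3 per group). Filled points passed the test, with blue lower and red higher in siQk, and collagen IV is the collagen class with filled points on both sides of 0.

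Collagen IV genes moved in both directions and held the largest drops among the tested members, those of Col4a5 and Col4a3. The chain genes lie in the genome as head-to-head pairs, Col4a1 with Col4a2, Col4a3 with Col4a4 and Col4a5 with Col4a6. Chains 1 and 2 make up the collagen IV of most basement membranes, and chains 3, 4 and 5 together that of the kidney glomerulus. Of the 6 genes 4 were tested, of which 2 fell (beside 17.2% of all genes) and 1 rose (beside 13.8%), with a median log2 fold change of -0.80.

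Col4a5 (Entrez 12830, chrX:141475370-141689236) was the highest of the 6 in the control cells. Its levels were 32.4, 44.3 and 44.1 RPKM in siNC and 8.08, 6.09 and 7.14 RPKM in siQk. Every siQk library was far below every siNC library, at 17.6% of the siNC mean (log2 fold change -2.65, SE 0.14, FDR 0.00035).

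Col4a3 (Entrez 12828, chr1:82586921-82722059) lay much lower, at 1.06, 1.51 and 0.855 RPKM in siNC and 0.241, 0.241 and 0.202 RPKM in siQk. These values stood on 615, 1664 and 1125 tags and on 339, 199 and 255 tags. The groups did not overlap, and the siQk mean was 20.0% of the siNC mean (log2 fold change -2.47, SE 0.23, FDR 0.00094). Of its 9967 annotated exon bases 563 are shared with C430014B12Rik on the opposite strand, and the counting is not stated to use strand.

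Col4a1 (Entrez 12826, chr8:11198423-11312889) moved the other way. It measured 7.96, 12.5 and 7.22 RPKM in siNC and 19.1, 18.2 and 18.8 RPKM in siQk, with siNC 2 above the other control libraries and all siQk libraries above it (log2 fold change 0.87, SE 0.20, FDR 0.016). Without siNC 1, siQk 1 or siQk 3 the call was lost, with log2 fold changes of 0.80, 0.85 and 0.86. Its partner Col4a2 (Entrez 12827, chr8:11312805-11449287) measured 1.98, 5.22 and 2.19 RPKM in siNC and 7.74, 6.77 and 8.43 RPKM in siQk. The groups of Col4a2 did not overlap either, yet it missed the threshold on P (log2 fold change 1.14, SE 0.36, FDR 0.044), while 7 of the 16 alternatives called it, DESeq2, the likelihood ratio test and limma among them.

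The other pairs did not keep even levels between partners. Col4a6, next to Col4a5, stood at 0.0494 to 0.0636 RPKM in siNC and at 0.0274 to 0.0312 RPKM in siQk. Col4a4, next to Col4a3, stood at 0.0127 to 0.0217 RPKM in siNC and at 0.0102 to 0.0301 RPKM in siQk, on 4 to 23 tags per library. Neither was tested, and of the 3 chains of the glomerular network that of Col4a4 was thus near the floor in both groups. The RPKM of Col4a5 was 745 times that of Col4a6 in the siNC libraries on average and 239 times in siQk, whereas that of Col4a1 was 3.24 and 2.46 times that of Col4a2.

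**Figure D2:**
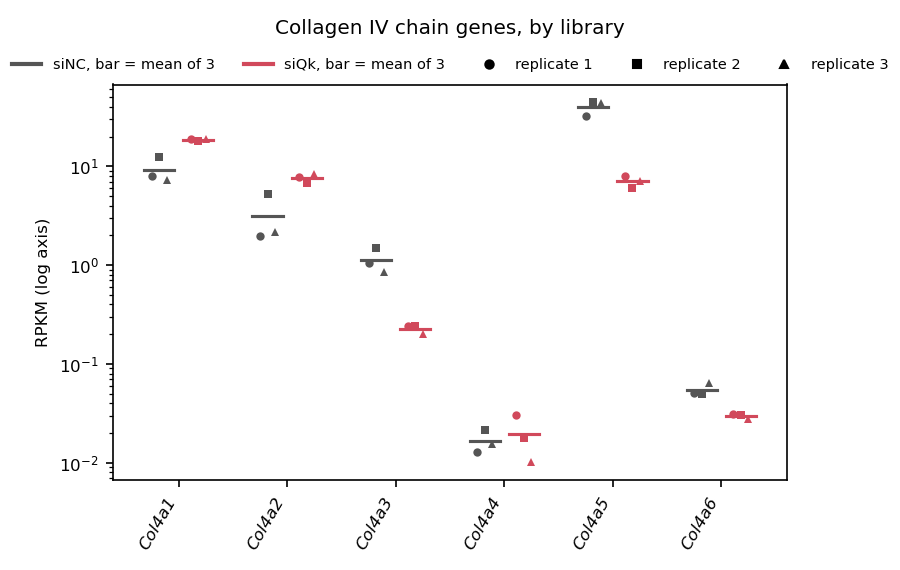
RPKM (log axis) of the 6 collagen IV chain genes in each library, with siNC in grey, siQk in red, a symbol per replicate and a bar at the mean of 3. Col4a1 and Col4a2 lie higher in the siQk libraries, Col4a3 and Col4a5 lower, and Col4a4 and Col4a6 stay below 0.1 RPKM.

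In the RefSeq promoter windows (GRCm38.p6), the start sites of Col4a1 and Col4a2 are 21 bases apart on opposite strands, and those of Col4a5 and Col4a6 are 1343 bases apart. These sites differ from the ends of some gene spans given here: the span of Col4a1 ends at base 11312889, while its window has the start site at 11312826. The promoter windows of Col4a1 and Col4a2, from 250 bases before to 50 after the start site, are shown because the pair shares 78 bases there, in capitals, and because both had higher levels in every siQk library. RPKM ranges did not overlap for 58.3% of all genes, and Col4a2 did not pass. Annotated exons of the pair share 22 bases, and the bases before each start site lie within the span of the other gene. Any link between these sequences and the levels was not tested. Each is read 5' to 3' on the strand of its gene.
Col4a1, chr8:11312777-11313076, minus strand: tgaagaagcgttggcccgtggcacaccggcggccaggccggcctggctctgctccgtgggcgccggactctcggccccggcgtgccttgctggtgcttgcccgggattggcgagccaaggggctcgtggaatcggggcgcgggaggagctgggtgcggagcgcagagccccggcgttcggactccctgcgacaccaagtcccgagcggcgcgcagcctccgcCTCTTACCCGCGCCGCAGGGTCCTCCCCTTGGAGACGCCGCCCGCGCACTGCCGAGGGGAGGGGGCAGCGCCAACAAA
Col4a2, chr8:11312555-11312854, plus strand: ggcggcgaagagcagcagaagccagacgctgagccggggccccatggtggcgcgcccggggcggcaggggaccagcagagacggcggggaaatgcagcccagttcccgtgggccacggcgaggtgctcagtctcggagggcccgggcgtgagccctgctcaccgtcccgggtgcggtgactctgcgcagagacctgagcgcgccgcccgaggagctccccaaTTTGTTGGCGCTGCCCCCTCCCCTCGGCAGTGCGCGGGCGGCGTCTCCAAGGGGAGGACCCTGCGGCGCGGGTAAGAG

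The windows are rich in G and C, at 74% in Col4a1 and 73.7% in Col4a2. Searched on both strands, the GC box GGGCGG occurred once in the window of Col4a1 and 3 times in that of Col4a2, and the CCAAT box CCAAT occurred once in each. The TATA box TATAAA was in neither. RefSeq windows were matched for 50 of the 67 members, with 56 windows in all. GGGCGG was in 33 of these windows (58.9%) and in 35.7% of all 32851 windows, CCAAT in 32.1% and 37.4%, and TATAAA in 17.9% and 13.6%.

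Fibrillar collagens included the most abundant member but none that changed, beside 31.0% of all genes. All 5 of the 11 that were tested failed the threshold, with a median log2 fold change of 0.14. Col11a1, a minor chain of cartilage-type fibrils, measured 261, 184 and 408 RPKM in siNC and 408, 361 and 392 RPKM in siQk. The siNC libraries alone spanned more than the distance between the groups, and the highest of them was level with the highest siQk library (log2 fold change 0.30, SE 0.26, FDR 0.39). Its partner chain Col11a2 measured 15.8, 15.9 and 10.6 RPKM in siNC and 17.9, 16.5 and 27.8 RPKM in siQk, without overlap but also without passing (log2 fold change 0.40, FDR 0.26). Transcripts of the main interstitial collagens were near 0: Col1a1 did not exceed 0.113 RPKM, Col3a1 did not exceed 0.0266 RPKM, and Col1a2 was listed at 0 in all siNC libraries. Col27a1 and Col5a1, a cartilage fibrillar chain and a chain that starts fibrils, had log2 fold changes of -1.03 and -0.63 (FDR 0.035 and 0.034) and missed the threshold on P.

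FACIT collagens fell in 3 of 8 tested genes, beside 17.2% of all genes, and rose in none, beside 13.8%, with a median log2 fold change of -0.51. Of the 3 calls, those of Col9a3 and Col12a1 were lost under 9 and 7 of the 16 alternatives. Col20a1 (Entrez 73368, chr2:180983323-181017545) measured 126, 91.6 and 56.6 RPKM in siNC and 20.4, 26.7 and 31.1 RPKM in siQk. The control libraries differed by more than a factor of 2 among themselves, yet the lowest still lay above every siQk library (log2 fold change -1.98, SE 0.33, FDR 0.0055).

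Col16a1, the next most abundant member after Col11a1, measured 312, 300 and 268 RPKM in siNC and 294, 291 and 316 RPKM in siQk, with overlapping ranges (log2 fold change -0.12, SE 0.11, FDR 0.41). Its sign turned positive when libraries were scaled by their size alone. The chains of collagen IX, which coats cartilage-type fibrils, did not move together. Col9a1 measured 64.1, 32.2 and 62.2 RPKM in siNC and 29.6, 34.4 and 34.2 RPKM in siQk, where siNC 2 lay within the siQk range (log2 fold change -0.85, FDR 0.042), and it missed the threshold on P.

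Col9a3 measured 6.43, 6.22 and 6.26 RPKM in siNC and 4.33, 4.61 and 5.78 RPKM in siQk and fell slightly (log2 fold change -0.51, SE 0.13, FDR 0.022). That call was lost without any 1 of siNC 1, siNC 2, siNC 3, siQk 1 or siQk 2. Its exons share 234 bases with Tcfl5 on the opposite strand, which did not exceed 0.115 RPKM. Col9a2 had a log2 fold change of 0.53 (FDR 0.057) and did not pass. Col12a1, a chain of dense connective tissue, measured 1.05, 1.06 and 1.27 RPKM in siNC and 0.695, 0.719 and 0.955 RPKM in siQk (log2 fold change -0.66, SE 0.15, FDR 0.016). The groups stood apart by a small gap, and the call was lost without siNC 1, siNC 3, siQk 1 or siQk 2.

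Among the remaining collagens, a transmembrane and a collagen VI chain fell. Col13a1 (Entrez 12817, chr10:61838234-61979206), which spans the membrane at sites of adhesion, measured 1.92, 1.55 and 0.769 RPKM in siNC and 0.335, 0.208 and 0.468 RPKM in siQk. It stood on 63 to 629 tags per library, siNC 3 was the lowest control library, and the siQk mean was 23.8% of the siNC mean (log2 fold change -2.21, SE 0.44, FDR 0.010). Col6a1, a chain of the beaded filaments of collagen VI, measured 2.97, 1.28 and 1.34 RPKM in siNC and 0.589, 0.735 and 0.836 RPKM in siQk.

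The high value of Col6a1 was that of siNC 1, the library with more ribosomal RNA, and the other control libraries also lay above the siQk range (log2 fold change -1.54, SE 0.38, FDR 0.022). Without siNC 1 it was still called, at a log2 fold change of -0.98, while leaving out any siQk library ended the call. Its partner chains were lower: Col6a2 did not exceed 0.462 RPKM and had a log2 fold change of -0.75 (FDR 0.13), and Col6a3 did not exceed 0.0177 RPKM. Col18a1, a basement membrane collagen whose end fragment is endostatin, spread from 3.86 to 10.9 RPKM in siNC and from 4.42 to 5.08 RPKM in siQk, and its log2 fold change of -0.79 did not pass.

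**Figure D3:**
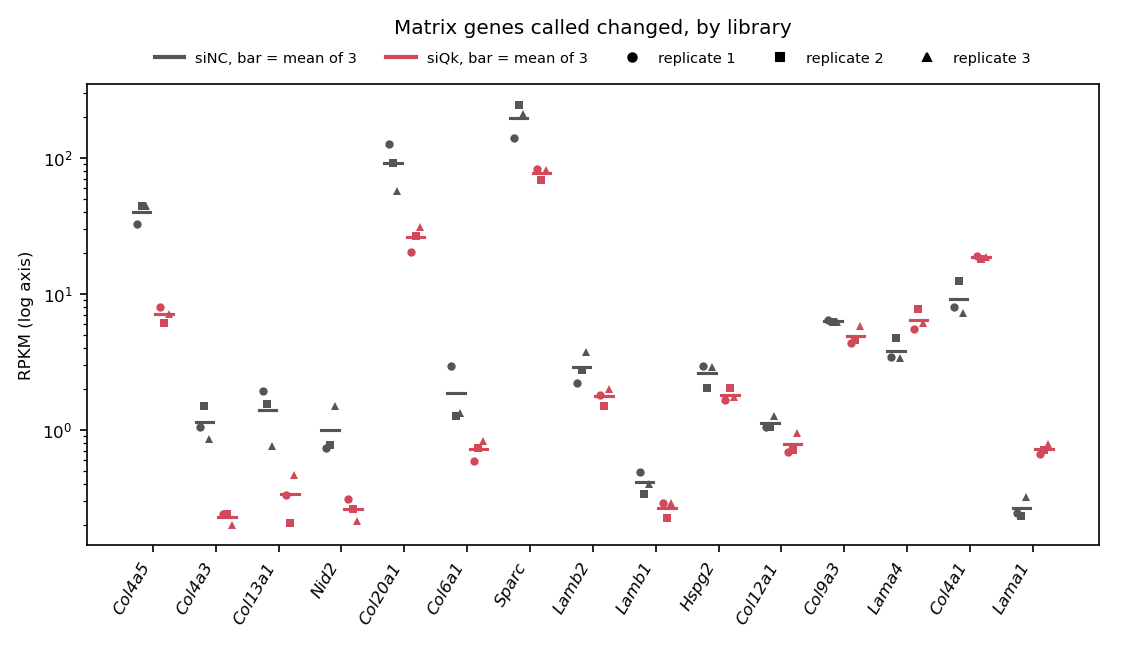
RPKM (log axis) in each library of the 15 members that changed, ordered by log2 fold change, with siNC in grey, siQk in red, a symbol per replicate and a bar at the mean of 3. The siQk points lie below all siNC points for the 12 genes from Col4a5 to Col9a3 and above them for Lama4, Col4a1 and Lama1.

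Laminin chains changed in 4 of 7 tested genes (57.1%, beside 31.0% of all genes). Of 4 tested alpha chains 2 rose (beside 13.8%), and both tested beta chains fell (beside 17.2%). Lama1 (Entrez 16772, chr17:67697127-67822645), an alpha chain of embryonic and meningeal basement membranes, measured 0.244, 0.232 and 0.322 RPKM in siNC and 0.665, 0.708 and 0.796 RPKM in siQk. All siQk libraries lay above all siNC libraries, on 137 to 410 tags in siNC and 565 to 972 tags in siQk (log2 fold change 1.29, SE 0.16, FDR 0.0021). Lama4, an alpha chain of vessel basement membranes, measured 3.43, 4.71 and 3.37 RPKM in siNC and 5.57, 7.79 and 6.08 RPKM in siQk.

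The groups of Lama4 did not overlap either (log2 fold change 0.60, SE 0.17, FDR 0.031), and its call was lost without siNC 1, siNC 3, siQk 2 or siQk 3. The other tested alpha chains did not pass, Lama5 with a log2 fold change of -0.61 (FDR 0.041) and Lama3 with -0.40 (FDR 0.64), and Lama2, the alpha chain of muscle and peripheral nerve laminin, did not exceed 0.0626 RPKM. Of the beta chains that fell, Lamb2 measured 2.20, 2.78 and 3.75 RPKM in siNC and 1.81, 1.49 and 1.99 RPKM in siQk, and its call was lost without siQk 1 or siQk 2 (log2 fold change -0.86, SE 0.19, FDR 0.014). Lamb1 measured 0.495, 0.340 and 0.405 RPKM in siNC and 0.290, 0.227 and 0.289 RPKM in siQk (log2 fold change -0.77, SE 0.21, FDR 0.029), with a call that was lost when any library but siNC 2 was left out.

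The only tested gamma chain, Lamc1, which is part of most laminins, was the most abundant laminin transcript and did not pass with all libraries. It measured 28.9, 28.0 and 16.2 RPKM in siNC and 24.8, 26.1 and 20.5 RPKM in siQk, and the siQk range lay within the siNC range (log2 fold change -0.20, SE 0.24, FDR 0.54). The low siNC 3 decided this, since without it Lamc1 was called lower (log2 fold change -0.44, FDR 0.028). All laminin genes together summed to 36.9 ± 7.80 RPKM in siNC and 36.7 ± 2.90 RPKM in siQk (SD, n = 3). Lamc1 alone thus exceeded the alpha chains in every library, which summed to 9.0 ± 1.87 and 10.8 ± 0.968 RPKM, and the beta chains, at 3.38 ± 0.770 and 2.10 ± 0.286 RPKM.

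Both tested linkers of basement membranes fell, beside 17.2% of all genes, and the call of Hspg2 was lost under 7 of the 16 alternatives. Nid2 (Entrez 18074, chr14:19751257-19811787), a nidogen that bridges laminin and collagen IV, measured 0.732, 0.776 and 1.5 RPKM in siNC and 0.309, 0.265 and 0.215 RPKM in siQk. Even without the high siNC 3 the groups stood apart, and the siQk mean was 26.2% of the siNC mean (log2 fold change -2.07, SE 0.30, FDR 0.0037). Of its 5174 exon bases 437 are shared with Rtraf on the opposite strand, which was abundant at 58.2 to 77.7 RPKM and had a log2 fold change of -0.03. Nid2 stood on 110 to 996 tags per library and Rtraf on 5138 to 16636. The share of Rtraf in the tags of Nid2 was not tested.

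Hspg2, which encodes perlecan, a heparan sulfate proteoglycan, measured 2.95, 2.04 and 2.91 RPKM in siNC and 1.67, 2.03 and 1.75 RPKM in siQk (log2 fold change -0.69, SE 0.17, FDR 0.019). The lowest siNC and the highest siQk library nearly met, and the call was lost without siNC 1, siNC 3, siQk 1 or siQk 3. Nid1 was not tested and did not exceed 0.187 RPKM.

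Of the glycoproteins, Sparc fell and stood far above the rest. Sparc (Entrez 20692, chr11:55394159-55420080), a secreted protein that binds collagen and modulates adhesion, measured 139, 242 and 210 RPKM in siNC and 82.4, 69.0 and 81.9 RPKM in siQk. Every siQk library was below every siNC library, at 39.4% of the siNC mean (log2 fold change -1.48, SE 0.18, FDR 0.0021). Tnc, an anti-adhesive glycoprotein of developing glia, measured 0.422, 0.459 and 0.147 RPKM in siNC and 0.688, 0.732 and 1.16 RPKM in siQk.

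The groups of Tnc did not overlap, but its spread kept it from passing (log2 fold change 1.18, SE 0.45, FDR 0.080). Fn1, or fibronectin, had a log2 fold change of -0.40 at 0.240 to 0.404 RPKM and did not pass. None of the 3 tested thrombospondins, secreted proteins that astrocytes use to promote synapses, passed, with a median log2 fold change of -0.02. Vtn and Spp1, or vitronectin and osteopontin, were not tested and did not exceed 0.0827 and 0.147 RPKM. Col4a3bp, the symbol match that is no collagen, measured 11.6 to 13.6 RPKM in siNC and 12.95 to 15.04 RPKM in siQk and had a log2 fold change of 0.03.

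The genes that make and anchor the matrix were counted from lists of 31 processing enzymes and chaperones and of 25 matrix receptors. Of the 22 tested enzyme genes 9 changed (40.9%, beside 31.0% of all genes), with 7 lower (beside 17.2%), 2 higher (beside 13.8%) and a median log2 fold change of -0.17. The most lowered were Pcolce, an enhancer of procollagen C-propeptide cleavage, Leprel1 (P3h2), a prolyl 3-hydroxylase known for collagen IV, and Glt25d2 (Colgalt2), a collagen galactosyltransferase. Pcolce went from 4.85 ± 1.16 to 1.04 ± 0.0827 RPKM (log2 fold change -2.37), Leprel1 from 14.3 ± 2.33 to 6.20 ± 1.85 RPKM (-1.35) and Glt25d2 from 12.5 ± 4.22 to 6.87 ± 0.573 RPKM (-1.0, each SD over n = 3).

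The prolyl 3-hydroxylases differed in direction, since Leprel2 (P3h3) rose from 3.75 ± 0.734 to 7.89 ± 0.375 RPKM (log2 fold change 0.92) and Lepre1 (P3h1) rose by 0.25 on the log2 scale. P4ha1, the catalytic subunit of prolyl 4-hydroxylase, had the smallest drop that passed (-0.24), and 11 of the 16 alternatives ended its call, while 8 ended that of Lepre1. Serpinh1, the collagen chaperone HSP47, and Lox, which crosslinks collagen fibers, were not tested, at means of 0.171 and 0.0234 RPKM in siNC.

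Of the 21 tested receptor genes 12 changed (57.1%, beside 31.0%), with 11 lower (beside 17.2%), 1 higher and a median log2 fold change of -0.48. The most lowered were Itga2, the alpha subunit of a collagen and laminin integrin, Cd44, a hyaluronan receptor, and Itgb8, which with Itgav binds latent TGF-beta. Itga2 went from 0.602 ± 0.384 to 0.0942 ± 0.00738 RPKM (log2 fold change -2.83), Cd44 from 17.1 ± 0.454 to 5.26 ± 0.830 RPKM (-1.85) and Itgb8 from 39.6 ± 17.1 to 13.3 ± 1.43 RPKM (-1.72, each SD over n = 3). Without siNC 2, Itga2 fell under the filter on low counts and was not tested.

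Itga9 was the only receptor that rose, from 2.53 ± 0.68 to 4.51 ± 0.324 RPKM (log2 fold change 0.69), and leaving out siNC 2, siQk 1 or siQk 2 ended its call. Among abundant receptors, Itgb1, the beta subunit of most matrix integrins, fell from 222 ± 23.95 to 161 ± 15.7 RPKM (log2 fold change -0.62), and Itgav fell by 0.48 on the log2 scale. Ddr1, a collagen-activated receptor kinase, fell from 182 ± 4.16 to 101 ± 8.52 RPKM (log2 fold change -1.0), and Dag1, or dystroglycan, a laminin receptor, fell from 41.7 ± 3.35 to 28.9 ± 2.77 RPKM (-0.68, each SD over n = 3). Cd47, also abundant, did not fall: it measured 62.2 ± 0.777 RPKM in siNC and 78.5 ± 9.52 RPKM in siQk and did not pass (log2 fold change 0.19, FDR 0.19).

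**Figure D4:**
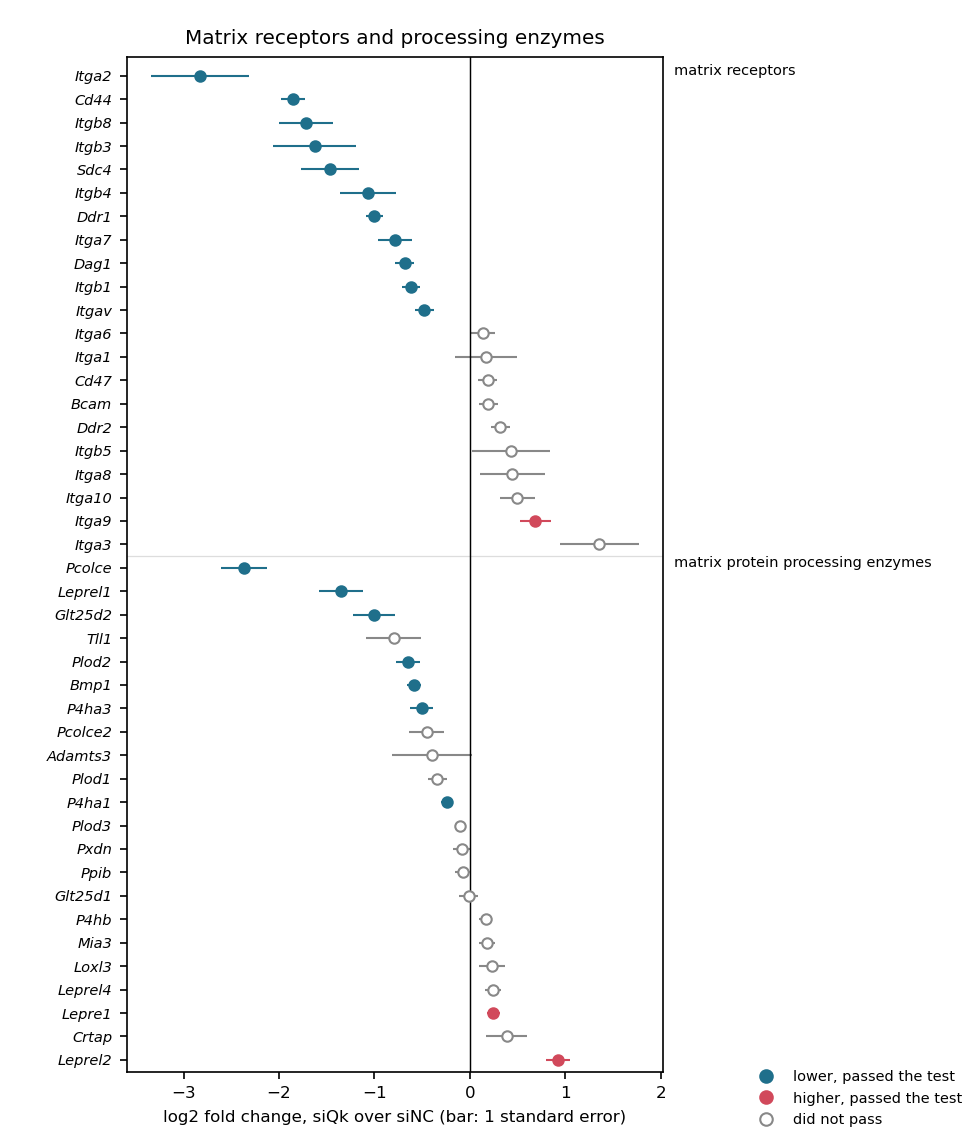
Log2 fold changes (siQk over siNC) of the 21 tested matrix receptors and the 22 tested processing enzymes, with bars of 1 standard error (n = 3 per group). Filled points passed the test, with blue lower and red higher in siQk: 11 receptors and 7 enzymes are blue, 1 receptor and 2 enzymes are red.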

How the data were processed

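Polyadenylated RNA of 6 mOPC libraries (TruSeq, 3 siNC and 3 siQk) was sequenced by the authors as paired-end reads, aligned to mm10 with OLego and quantified with Quantas (versions and gene models: not given in the sources used here). The authors deposited, per gene, an estimated count of tags, the exon length and an RPKM value. The deposited RPKM equalled tags scaled by exon length and by the library's summed tags, with a largest relative difference of 1.045e-14. RPKM has no correction for composition. The counting is not stated to use strand, so tags in bases that genes on opposite strands share may belong to either.

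Rounded estimated counts of genes with an average logCPM over 0 were tested with edgeR 4.0.16 (limma 3.58.1, R 4.3.3), using TMM and the quasi-likelihood test with the group as the only term, and called at P below 0.01 and FDR below 0.1. SE was taken as the size of the log2 fold change over the square root of F, and the common biological coefficient of variation was 0.146. The step was tested on simulated data. Replicates of a group differed by a chi-square per degree of freedom of 185 to 326 in siNC and 36.3 to 74.0 in siQk, so each counted as 1 sample. No culture or animal is named for a library, so that the spread between libraries may be partly technical. Replicate numbers did not pair the samples, with correlations of deviations of -0.05, -0.15 and -0.34.

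The members, roles and gene lists were chosen with earlier results of these data known. Genes named were Qk, the changed members, the 10 most abundant members, and the 3 lowest and 3 highest changed genes of the enzyme and the receptor list. Others (such as Col4a2, Tnc, Col27a1, Col5a1, Ddr1, Dag1, Cd47, Serpinh1, Lox and untested members) were chosen after their values were seen. Newer symbols were matched to the files through Entrez identifiers. Promoters (GRCm38.p6) and gene spans came from RefSeq. The 3'UTRs and exon overlaps came from GENCODE M21 (GRCm38, the assembly of mm10), taking the longest 3'UTR per gene. Alternatives were DESeq2 1.42.0, edgeR's likelihood ratio test, limma on log2(RPKM + 0.1), 3 other scalings, other low-count filters, stricter cutoffs, the replicate block and each library left out.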

Additional observations from a re-analysis of the deposited data

How the results depend on the processing

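The count of changed members (15) was 24 with DESeq2, 23 with no filter on low counts, which tested all 67, 22 with the likelihood ratio test and 9 to 16 with 1 library left out (9 without siQk 1 or siQk 2). The count of higher members (3) was 6 with DESeq2, 5 with the likelihood ratio test, 5 with library size only, 5 with no filter, 6 with limma on log2(RPKM + 0.1), and 1 to 4 with 1 library left out (1 without siNC 1 or siQk 3). That of lower members (12) was 18 with DESeq2, 18 with no filter and 17 with the likelihood ratio test. It was 7 with limma, 9 with library size only and 6 to 12 with 1 library left out (6 without siQk 1). Changed enzymes (9) were 3 at a stricter cutoff (FDR below 0.05, log2 fold change of 1 or more in size), and 5 to 9 with 1 library left out (5 without siQk 2). Changed receptors (12) were 9 to 11 with 1 library left out. Scaled by TMM, the summed members were 1142 RPKM in siNC (1084 unscaled) and 922 RPKM in siQk (971 unscaled). With the replicate block 13 members changed, of which 12 were shared, with Col6a1, Col9a3 and Hspg2 lost and Col5a1 gained, and 2796 genes changed in all. Scaling by library size raised the median of all genes to 0.16, and limma on RPKM raised it to 0.16. Reversed signs, none of them called, were Col16a1 at 0.034 with library size only and 0.036 with limma, Lamc1 at 0.003 with limma, and Col4a3bp at -0.004 and -0.006 without siQk 1 and siQk 3 (range -0.006 to 0.109 with 1 library left out). Of 527 values of 33 genes other than Qk under the alternatives, 437 kept direction and call, 80 lost the call, 5 gained it and 5 reversed. The cause was not tested. Depth limits the 27 untested members.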
